A study of Mus musculus with 6 samples.

Results

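The lysosomal genes of IEC 4.1, a mouse line labelled as intestinal epithelium, were compared between untreated cells and cells after 6 h in 10 ng/ml interferon-gamma. Members were chosen by annotation, as the genes whose deposited KEGG pathway entry names the lysosome, without the metal transporters Slc11a1 and Slc11a2. This gave 122 of the 14701 genes in the tables: 15 proteases, 18 glycosidases, 21 other hydrolases and activators, 23 membrane proteins, 9 subunits of the proton pump, 31 sorting genes and 5 other members. Controls were replicates 2, 3 and 4 and treated samples replicates 1, 2 and 4, so n = 3 per group, and no source used here says whether they were separate cultures. The labels name no allele or agent besides interferon-gamma.

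Lysosomes are acidic organelles in which hydrolases break down proteins, sugars, lipids and nucleic acids delivered by endocytosis, phagocytosis and autophagy. Soluble hydrolases receive a mannose 6-phosphate tag in the Golgi and are carried by mannose 6-phosphate receptors and clathrin adaptors, a proton pump keeps the lumen acidic, and heavily glycosylated membrane proteins line the organelle. Cathepsins are its main proteases, and in antigen-presenting cells a few of them trim the invariant chain of MHC class II molecules. Interferon-gamma, a cytokine made by lymphocytes, acts through Jak kinases on transcription factors that bind gamma-activated sites and interferon-stimulated elements.

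The libraries held 17490689 to 18678543 estimated counts. Irf1, an early interferon-gamma target, was at 90.1 to 100.9 CPM (counts scaled to library size) in the controls and 1121 to 1148 in the treated libraries, so each library matched its treatment label. Of the 12 epithelial markers checked, 7 had a row, and they summed to 0.686 to 0.905 CPM in controls and 0.412 to 0.66 in treated libraries, which goes against the epithelial label. All 8 mesenchymal markers were tested, 1 rose (Vim, 2385 to 2945 CPM) and 6 fell (87.5% called, against 38.1% of all genes tested), and their sum was 6969 to 7246 CPM in controls and 6546 to 7029 in treated libraries. Whether this had a part in the results below was not tested. Of 11 macrophage and other leukocyte markers 6 had a row, and apart from Cd14 (21.7 and 19.3 CPM) each had a group mean under 0.6 CPM. Every gene in the tables had reads in at least 1 control library, so lysosomal genes without control reads were not analysed here.

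Most lysosomal genes were measured and did not pass the test, and most of those that passed were modest rises, spread over every role, with 7 among membrane proteins and 6 among sorting genes. Of the 122 members, 109 passed the low-count filter. In the edgeR quasi-likelihood test, adjusted by the Benjamini-Hochberg method over all 11423 genes tested, 25 members were higher and 7 lower in treated cells at the threshold of 0.05. That is 29.4% of the tested members, against a background of 38.1% of all genes tested. In the background, rises were 19.9% and falls 18.1% of all genes, and among lysosomal members they were 22.9% and 6.42%.

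The changes were small. The median log2 fold change of the members was 0.05, beside 0.01 over all genes, and 55 of 109 members lay within 0.1 of 0 on the log2 scale. Only 2 members rose at least 2-fold (background 4.03%), Ctso and Idua, and 1 fell at least 2-fold (background 1.05%), Ap3b2. All 3 were under 2 CPM in the controls. Rises of at least 25% were called for 13 members (background 11.8%), and falls of at least 20% for 3 members, Ap3b2, Sgsh and Gnptab (background 9.2%). The treated and control CPM ranges did not overlap for 45 of the 109 members (background 48% of all genes), which included 31 of the 32 members that passed the test.

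The balance of rises and falls depended on scaling. With upper-quartile scaling 20 members rose and 13 fell, and on total counts 19 rose and 16 fell, while over all genes total counts gave 1644 rises and 3122 falls in place of 2278 and 2069. The median of all genes was then -0.06 on the log2 scale, so a change under about 0.1 has no firm sign. Summed over all members, the lysosomal genes held 10136 ± 110.5 CPM in controls and 11087 ± 16.3 CPM in treated libraries (mean ± SD, n = 3 per group). The deposited TPM scale corrects for gene length and is relative to each library's own total. On that scale the sums were 9118 ± 125 and 9140 ± 199 TPM. In bulk RNA, a change in the share of cells that express a gene and a change in RNA per cell cannot be told apart.

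**Figure D1:**
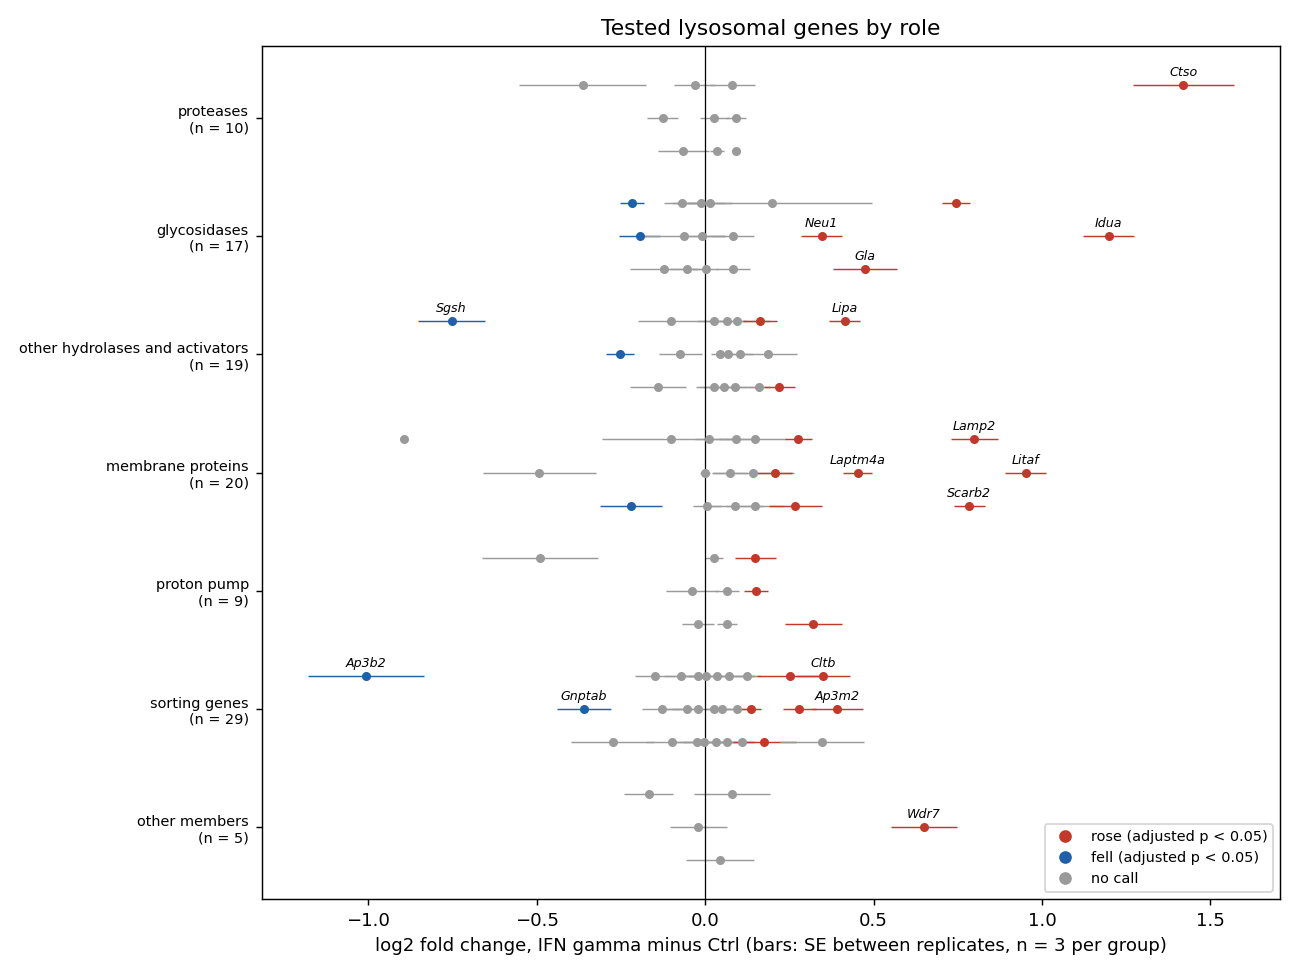
The log2 fold change of each of the 109 tested lysosomal genes (x axis) is plotted by role (y axis, number of genes in brackets), with bars for the standard error between replicates, which is not drawn for 1 gene (Entpd4, log2 -0.89). Red points passed as higher and blue points as lower (adjusted p under 0.05), and each named gene rose by at least 25% or fell by at least 20%. Most points lie near 0, and the larger rises are Ctso, Idua, Litaf, Lamp2, Scarb2 and Wdr7.

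Of the cathepsins and other proteases, Ctso alone passed the test. Of 15 proteases 10 were tested, 1 rose and none fell in edgeR, a share of 10% against the background of 38.1%. The median log2 fold change was 0.03. At an unadjusted p under 0.05 there was 1 lower gene, Ctsl, which DESeq2 called.

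Ctsl, a cysteine endopeptidase, was the most abundant protease, at 669 ± 18.1 TPM in controls and 568 ± 28.4 TPM in treated libraries (SD, n = 3 per group). Its CPM was 575, 567 and 570 in control replicates 2, 3 and 4 and 505, 507 and 557 in treated replicates 1, 2 and 4. All 3 treated libraries lay below all 3 controls, and the log2 fold change was -0.13 ± 0.0464 (SE between replicates) with an adjusted p of 0.0594 in edgeR. Ctsl passed with RLE scaling (adjusted p = 0.0431), upper-quartile scaling (0.00885), total counts (0.0029) and DESeq2 (0.0259), and without treated replicate 4 (0.00617). Its counts were not whole numbers in 5 of 6 libraries.

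Ctsb, another cysteine protease and second in level at 396 ± 7.31 TPM in controls, had 509, 493 and 486 CPM in controls and 509, 508 and 509 in treated libraries. The groups met at the top control library, and the log2 fold change was 0.04 ± 0.0201 (adjusted p = 0.594, edgeR). Within each library, the ratio of Ctsl to Ctsb TPM was 1.66, 1.68 and 1.74 in controls and 1.49, 1.51 and 1.57 in treated libraries. This ratio does not depend on library scaling and it did not overlap between the groups. It was chosen after the values were seen, and an exact permutation test of 3 against 3 cannot give a two-sided p under 0.1.

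Ctsd, the main aspartic protease of lysosomes, was at 248, 255 and 240 CPM in controls and 267, 258 and 267 in treated libraries (log2 0.09 ± 0.0302, adjusted p = 0.155, edgeR). Lgmn, the asparaginyl endopeptidase that processes several cathepsins, was at 119 CPM in each control and at 125, 128 and 127 in treated libraries (log2 0.09 ± 0.0118, adjusted p = 0.151). For both genes the treated libraries lay above the controls, but neither difference passed the test over all genes. Other abundant proteases were Ctsz, a carboxypeptidase (140 and 137 CPM), and Ctsa, a serine carboxypeptidase that also protects neuraminidase (141 and 149 CPM), and their groups overlapped. Tpp1, a tripeptidyl peptidase, was at 57.2 and 58.3 CPM. Ctsc, a dipeptidyl peptidase that activates the serine proteases of leukocyte granules, was at 13.4 and 12.8 CPM. In TPM the Ctsc means went the other way, 5.79 in controls and 6.81 in treated libraries. Ctsw, a protease of lymphocytes, had 3.08, 2.02 and 2.16 CPM in controls and 1.89, 1.76 and 2 in treated libraries (log2 -0.36, adjusted p = 0.171).

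Ctso was the exception, a cysteine protease found in many tissues that was rare in these cells. It had 35, 26 and 37 counts in controls and 79, 86 and 82 in treated libraries, which is 1.86, 1.38 and 1.95 CPM against 4.39, 4.73 and 4.82 CPM. Every treated library held more than 2 times the CPM of every control, a rise of 1.42 ± 0.15 on the log2 scale (2.68-fold, adjusted p = 6.53e-07, edgeR). With any 1 library left out, the log2 fold change stayed between 1.27 and 1.5. Even so, Ctso made up 0.0499% of the summed protease TPM in controls and 0.135% in treated libraries, against 37.4% and 34.7% for Ctsl.

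The proteases best known from antigen-presenting and bone-resorbing cells were at or near the floor. Ctss, the main invariant chain protease of those presenting cells, had 1 count over the 3 controls and 1 over the 3 treated libraries, and Ctsh, an aminopeptidase, had 1 and 0. Ctsk, the osteoclast collagenase, had 3 to 5 counts per library, Ctsf 2 to 6 and Napsa, an aspartic protease of lung and kidney, 1 to 7. None of these 5 was tested, and a count of 0 allows up to 3 counts, or 0.158 to 0.177 CPM, per library. Of the members that KEGG also lists for antigen processing and presentation (Ctsb, Ctsl, Lgmn and Ctss), none of the 3 tested passed (background 38.1% of all genes called), and Ctss was too low to be tested.

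**Figure D2:**
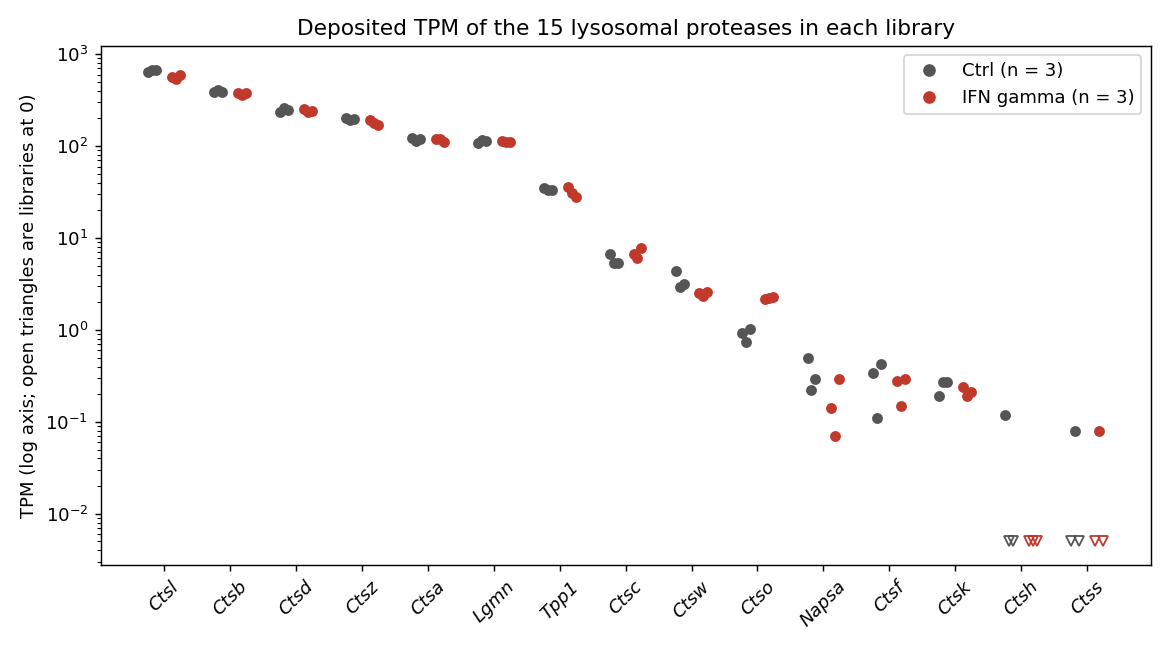
Deposited TPM (y axis, log scale) of the 15 lysosomal proteases (x axis, in order of control level) is shown as 1 point per library, grey for the 3 controls and red for the 3 treated libraries, with open triangles for libraries at 0. The levels run from 669 TPM for Ctsl down to single reads for Ctss and Ctsh, and Ctso is the gene whose red points lie well above its grey points.

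The bases around the interferon-stimulated element of both Ctso and Ctss are shown, because Ctso rose and Ctss stayed at the floor. The element was searched as GAAA, any pair of bases and GAAA again, on both strands of RefSeq promoter windows (GRCm38.p6), which run from 250 bases before the transcription start to 50 bases after it. The matching letters are in capitals, all stretches read 5′ to 3′ along the gene's own strand, and overlapping matches are joined.
Ctso, chr3:81932609-81932638, plus strand: gagccaaGAAACCGAAAGAGAAAgcgggcc
Ctss, chr3:95526755-95526784, plus strand: gtctttaaatGAAACCGAAAtgaaagttca
Tcirg1, chr19:3905410-3905439, minus strand: tgtttcatggTTTCACTTTCccagtttcaa
Lamp1, chr8:13159016-13159045, plus strand: cacaacctacTTTCCATTTCgggacactcg
In Ctso a pair of overlapping matches lay after the transcription start, and in Ctss the match began 21 bases before it. Tcirg1, a proton pump subunit, rose, and Lamp1 did not pass the test, so genes with a match were found in both classes. A match is only a run of letters and does not show that a factor binds there.

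Promoter windows were in the table for 97 members, 86 of them tested. Of those 86, 4 (4.65%) held this element, against 3.78% of the 9159 tested genes that had a window, and of all 97 members 6 (6.19%) did, against 3.99% of all 27025 genes in the table. Of the 18 risen members with a window 2 held it (11.1%), and of all 1811 risen genes 7.9% did. The gamma-activated site, searched as TTCNNNGAA, was in 8 of the 86 tested members (9.3%) and in 8.39% of tested genes. It was in 1 of the 18 risen members (5.56%), the adaptor gene Ap4e1, and in 11.5% of all 1811 risen genes. The windows of Lamp2, Scarb2 and Litaf, which rose, held neither of these motifs.

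Glycosidases, which take sugars off glycoproteins and glycolipids, moved in both directions. Of 18, 17 were tested, 4 rose and 2 fell (35.3% called, background 38.1%), and the median log2 fold change was 0.00. Both falls were modest, and their number went from 2 to 1 without control replicate 2 or 3 or without treated replicate 2 or 4.

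Gla, alpha-galactosidase A, the enzyme lacking in Fabry disease, went from 15, 12.2 and 13.9 CPM in controls to 18.6, 18.4 and 20.1 CPM in treated libraries. All treated libraries lay above all controls (log2 0.48 ± 0.096, adjusted p = 0.000195, edgeR). Neu1, the lysosomal sialidase, rose from 13.7, 13.9 and 13.8 CPM to 17.6, 18.8 and 16.2 CPM (log2 0.35 ± 0.0613, adjusted p = 0.00242, edgeR). Idua, the alpha-L-iduronidase of heparan and dermatan sulfate breakdown, rose from a low level, with 10, 10 and 9 counts in controls and 20, 21 and 22 in treated libraries (log2 1.20 ± 0.0753, adjusted p = 0.00236). So few counts make the size of that fold uncertain.

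The falls were Hyal2, a hyaluronidase anchored at the cell surface, and Gusb, beta-glucuronidase. Hyal2 went from 39.9, 41 and 38.8 CPM to 34.7, 35.2 and 33.1 CPM (log2 -0.22 ± 0.0354, adjusted p = 0.00866, edgeR). Gusb went from 34.2, 35.8 and 32.4 CPM to 31.4, 29.8 and 28.3 CPM (log2 -0.19 ± 0.06, adjusted p = 0.0283). The Gusb call was lost in every fit that left out a library other than control replicate 4 or treated replicate 1, with adjusted p of 0.0511 to 0.0989.

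The most abundant glycosidase was Gaa, which frees glucose from glycogen, at 60.7 ± 1.26 TPM in controls and 51.7 ± 6.21 TPM in treated libraries. Its CPM was 125, 116 and 121 against 117, 119 and 96.8, with treated replicate 4 the lowest (log2 -0.12, adjusted p = 0.152, edgeR). Without that library the log2 fold change was -0.04 (adjusted p = 0.648). The log2 fold change of Gaa was -0.18 (adjusted p = 0.0395) when scaled by the upper quartile and -0.20 (0.0234) when scaled by total counts. The other 10 tested glycosidases that did not pass had log2 fold changes of -0.07 to 0.20.

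Among the other hydrolases and their helpers, 19 of 21 were tested, 3 rose and 2 fell (26.3% called, background 38.1%), with a median log2 fold change of 0.07. The rises were in lipid handling and enzyme activation, and both falls were in heparan sulfate breakdown. Without control replicate 4, 1 of the rises was called.

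Lipa, the acid lipase that frees cholesterol from cholesteryl esters, was at 28, 30.3 and 28.2 CPM in controls and 37.6, 40 and 37.7 in treated libraries. The groups stood well apart (log2 0.41 ± 0.0458, adjusted p = 2.6e-05, edgeR). Psap, the precursor of the saposins that help degrade sphingolipids, was the most abundant gene of this list, at 694 TPM in controls. It went from 1057, 965.9 and 992.2 CPM to 1141, 1159 and 1074 CPM (log2 0.16 ± 0.051, adjusted p = 0.0176). That call was lost without control replicate 3 (adjusted p = 0.139) or 4 (0.0926) or treated replicate 1 (0.066) or 2 (0.0952). Sumf1, which activates sulfatases, rose from 42, 43.9 and 40.9 CPM to 51.1, 47 and 49.5 CPM (log2 0.22, adjusted p = 0.00673, and 0.0576 without control replicate 4).

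Sgsh, the heparan N-sulfatase, fell from 75, 76 and 66 counts in controls to 41, 45 and 35 in treated libraries. In CPM this was 3.99, 4.05 and 3.48 against 2.28, 2.48 and 2.06, with no overlap (log2 -0.75 ± 0.0995, adjusted p = 0.000842, edgeR). Hgsnat, which acetylates the same heparan chains, went from 43.3, 40.8 and 41.3 CPM to 35.9, 35.8 and 33.5 CPM (log2 -0.25 ± 0.0417, adjusted p = 0.00277). Smpd1, the acid sphingomyelinase, narrowly missed the threshold, at 32.4 and 36.2 CPM with no overlap (log2 0.16, adjusted p = 0.0505). It passed when genes needed at least 1 CPM in 3 libraries (adjusted p = 0.0487). Acp5, a phosphatase of osteoclasts and macrophages, and Arsg were too low to be tested.

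Membrane proteins held the clearest rises. Of 23, 20 were tested, 7 rose and 1 fell (40% called, background 38.1%), and the median log2 fold change of 0.12 was the highest of the 6 lists. Their summed level was 2527 ± 45.3 CPM in controls and 3167 ± 63.3 CPM in treated libraries, and 2707 ± 44 and 2980 ± 46.8 on the TPM scale. Rises of at least 25% were found for Litaf, Lamp2, Scarb2 and Laptm4a (background for such rises 11.8% of all genes).

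Lamp2, one of the 2 major lysosome-associated glycoproteins, lies on chromosome X (GRCm38.p6, 38399647 to 38456460). It had 288, 318 and 290 CPM in controls and 502, 499 and 559 in treated libraries. Every treated library was above every control by a wide margin (log2 0.80 ± 0.0706, 1.74-fold, adjusted p = 2.61e-10, edgeR). Its relative Lamp1, chromosome 8, 13159161 to 13175338, had 626, 671 and 630 CPM in controls and 674, 661 and 719 in treated libraries. The Lamp1 groups overlapped (log2 0.09 ± 0.0491, adjusted p = 0.177).

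The ratio of Lamp2 to Lamp1 TPM within each library was 0.355, 0.349 and 0.348 in controls and 0.556, 0.557 and 0.567 in treated libraries. The ratio thus differed between the groups by far more than within them, whatever the library scaling. It was chosen after the values were seen, and 3 against 3 libraries allow no two-sided exact permutation p under 0.1. Lamp1 remained the more abundant in TPM in all 6 libraries.

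Scarb2 encodes LIMP-2, a major lysosomal membrane protein. Its CPM was 70.3, 64.5 and 67.1 in controls and 115, 112 and 120 in treated libraries, a rise of 0.78 ± 0.0463 on the log2 scale (1.72-fold, adjusted p = 1.82e-10, edgeR). Litaf, a zinc-containing protein of the late endosome membrane, had the largest rise of the list, from 161, 155 and 158 CPM to 319, 316 and 281 CPM (log2 0.95 ± 0.061, adjusted p = 7.37e-12).

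Laptm4a and Laptm4b, small proteins spanning the late endosome and lysosome membrane, both rose. Laptm4a went from 263, 263 and 246 CPM to 344, 346 and 366 CPM (log2 0.45 ± 0.0427, adjusted p = 3.13e-07, edgeR), and Laptm4b from 55 to 66.7 CPM (log2 0.28, adjusted p = 0.00056). Laptm5, the blood cell member of that family, had 2 counts over the 3 controls and 0 over the 3 treated libraries. Cd164, a sialomucin, rose from 209 to 252 CPM (log2 0.27, adjusted p = 0.00106). Npc2, which hands cholesterol to the membrane protein Npc1, rose from 130, 124 and 115 CPM to 141, 143 and 143 CPM (log2 0.21, adjusted p = 0.00414). The Npc2 call was lost without control replicate 4 (log2 0.15, adjusted p = 0.068).

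Npc1, the cholesterol exporter, was at 24.2, 24.5 and 25 CPM in controls and 24.4, 24.4 and 24.9 in treated libraries, the closest match between groups of any tested member in adjusted p (0.998). Cd63, a tetraspanin of late endosomes and the most abundant lysosomal gene at 1226 TPM in controls, had overlapping groups (468 and 492 CPM, adjusted p = 0.291), as did the calcium channel gene Mcoln1 (18.8 and 20.9 CPM). The fall was Abca2, a lipid transporter, from 114, 115 and 127 CPM to 110, 103 and 91.6 CPM (log2 -0.22, adjusted p = 0.00958, and 0.0632 without control replicate 4). Cd68, a macrophage marker, was low in both groups at 1.72 and 1.59 CPM.

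Entpd4 and Entpd4b are near-identical neighbours on chromosome 14 that encode nucleotide phosphatases, and their reads could not be assigned reliably. Entpd4 was at 0 in control replicate 2 and treated replicates 2 and 4 and at 53.4 to 53.7 estimated counts in the other 3 libraries. The sum of both genes was 539, 527 and 553 counts in controls and 539, 559 and 530 in treated libraries. The Entpd4 value (log2 -0.89, adjusted p = 0.728) is therefore uncertain.

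**Figure D3:**
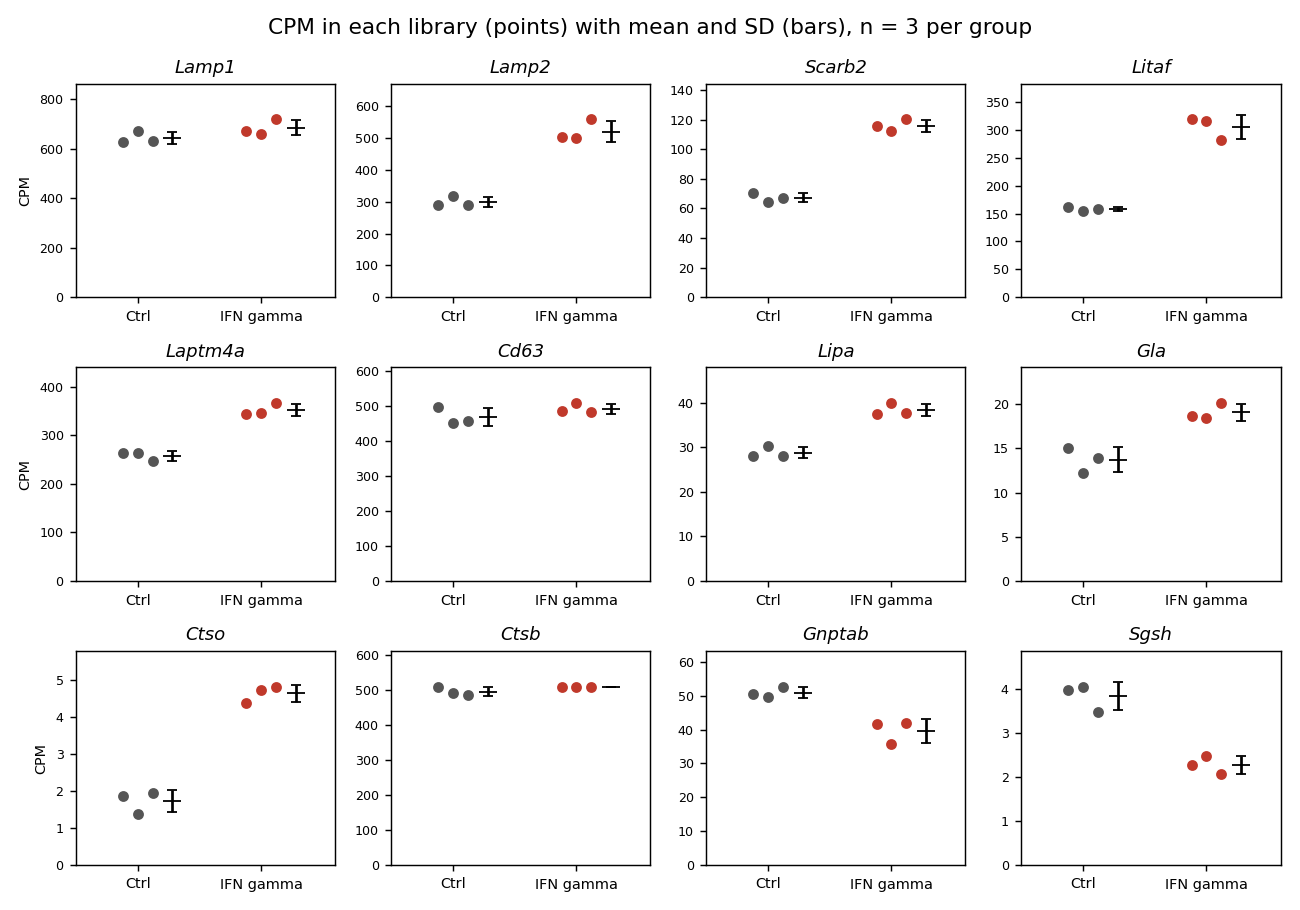
CPM (y axis, from 0) of 12 lysosomal genes is plotted for each library by group (x axis), with the mean and SD at the right of each group of 3. Lamp2, Scarb2, Litaf, Laptm4a, Lipa, Gla and Ctso lie higher in all treated libraries, Gnptab and Sgsh lower, and the points of Lamp1, Cd63 and Ctsb overlap or meet.

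The proton pump acidifies the lumen through a membrane sector that carries protons and a cytosolic sector that splits ATP. All 9 subunits in the list were tested and 3 rose (33.3% called, background 38.1%), with a median log2 fold change of 0.06. Tcirg1, which encodes the a3 form of the membrane subunit used in osteoclasts and secretory lysosomes, rose from 108, 95.6 and 110 CPM to 138, 133 and 121 CPM (log2 0.32 ± 0.0845, adjusted p = 0.000259, edgeR). The groups were separate, and the call held with each library left out (highest adjusted p 0.00377). The other forms of this subunit did not pass: Atp6v0a1 and Atp6v0a2 had log2 fold changes of -0.04 and -0.02, and Atp6v0a4, a form best known from kidney, went from 2.62 to 1.86 CPM (adjusted p = 0.0559, and 0.0186 without control replicate 3).

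Atp6v0b rose from 73.7 to 81.8 CPM (adjusted p = 0.0337, edgeR) and Atp6v1h from 89.9 to 99.7 CPM (adjusted p = 0.0451), both by 0.15 on the log2 scale. The Atp6v0b call held only without treated replicate 4, and the Atp6v1h call only without treated replicate 1, with adjusted p otherwise up to 0.124 and 0.178. So 1 of the 3 rises was called without control replicate 2, 3 or 4 or treated replicate 2. Atp6v0c, the proton-carrying ring subunit, was the most abundant of the list at 848 TPM in controls, and its groups overlapped in part (461 and 482 CPM, adjusted p = 0.329).

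Sorting genes bring hydrolases and membrane proteins to the lysosome. Of 31, 29 were tested, 6 rose and 2 fell (27.6% called, background 38.1%), with a median log2 fold change of 0.03. Without control replicate 4 there were 3 rises in place of 6.

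Gnptab, which encodes the catalytic subunits of the enzyme that starts the mannose 6-phosphate tag, had 50.4, 49.6 and 52.6 CPM in controls and 41.5, 35.6 and 42 in treated libraries. The groups were separate (log2 -0.36 ± 0.0805, 1.28-fold lower, adjusted p = 0.000207, edgeR), and the call held with each library left out (highest adjusted p 0.00325). Its partner genes Gnptg and Nagpa, for the gamma subunit and for the enzyme that uncovers the tag, had log2 fold changes of 0.09 and -0.06 and did not pass.

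Of the 2 mannose 6-phosphate receptors, M6pr, the cation-dependent one, rose from 180, 184 and 185 CPM to 198, 197 and 209 CPM (log2 0.14 ± 0.0304, adjusted p = 0.0343, edgeR). This call rested on all libraries together, since it was lost whichever library was left out (adjusted p of 0.0587 to 0.108). Igf2r, the cation-independent receptor, was at 42.2, 42.5 and 43.6 CPM in controls and at 46.6, 42.3 and 37.3 in treated libraries, which lay on both sides of the controls (adjusted p = 0.842). Sort1, another sorting receptor, had log2 0.03.

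Clathrin adaptors choose the cargo. Of the AP-3 complex, which routes membrane proteins such as Lamp proteins to lysosomes, all 7 genes were tested, 3 rose and 1 fell (57.1% called, background 38.1%). Ap3m2 rose from 9.94, 8.73 and 9.86 CPM to 13.2, 11.8 and 12.4 CPM (log2 0.39 ± 0.0756, adjusted p = 0.0029, edgeR). Ap3s1 rose from 61.9 to 73.7 CPM (adjusted p = 0.00642, and 0.076 without control replicate 4). Ap3m1, whose groups overlapped, went from 70.1 to 79.2 CPM (adjusted p = 0.0421, lost without any 1 library except control replicate 3 or treated replicate 1, with up to 0.216). Ap3b2, the form of the beta subunit found in neurons, fell from 32, 27 and 29 counts to 16, 15 and 10 (log2 -1.01 ± 0.172, adjusted p = 0.00357), while the widespread form Ap3b1 was at 69.5 and 75.9 CPM (adjusted p = 0.0812, and 0.028 without treated replicate 4).

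Of the 6 tested genes of AP-1, which works with mannose 6-phosphate receptors at the Golgi, none passed in edgeR or DESeq2, and 1, Ap1g2, had an unadjusted edgeR p under 0.05 (0.033). The background was 38.1% of all genes called. Ap1s1 was the most abundant sorting gene, at 343 TPM in controls, and had 220 and 209 CPM (log2 -0.07, adjusted p = 0.319, and 0.0336 on total counts). Whether AP-1 and AP-3 genes differed was not tested. In AP-4, 1 of 4 genes rose (25% called, against the same background), Ap4e1, from 31.6 to 38.4 CPM (log2 0.28, adjusted p = 0.00157). Of the clathrin chains, the light chain gene Cltb rose from 93.3, 79.5 and 80.1 CPM to 111, 108 and 104 CPM (log2 0.35 ± 0.0799, adjusted p = 0.000101), whereas Clta and Cltc had log2 fold changes of 0.00 and 0.03.

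Among the 5 members outside these lists, Wdr7 rose, a partner of the proton pump that assembles it together with Dmxl proteins. It was at 17, 17.8 and 20 CPM in controls and 28.2, 26.5 and 31.3 in treated libraries, with no overlap (log2 0.65 ± 0.0979, adjusted p = 1.51e-06, edgeR). Dmxl1 and Dmxl2 had log2 fold changes of 0.08 and 0.04 and did not pass. Ncoa7, whose product also binds the pump, had 19.7 and 17.6 CPM (log2 -0.17, adjusted p = 0.114, and 0.0229 on total counts).

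**Figure D4:**
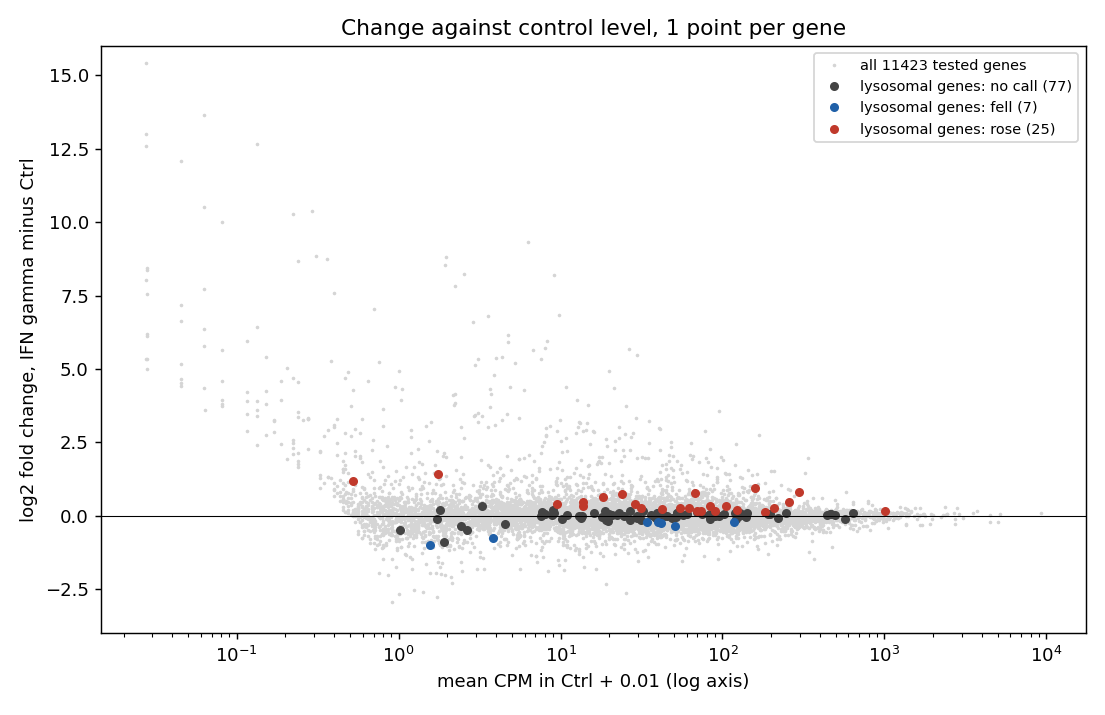
The log2 fold change (y axis) of every tested gene is plotted against its mean control CPM plus 0.01 (x axis, log scale), with all 11423 genes in light grey and the lysosomal genes on top in dark grey (no call), red (rose) and blue (fell). The lysosomal points stay between -1.01 and 1.42, while the largest rises of other genes exceed 10 on the log2 scale and start from low control levels.

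The transcription factors Tfeb and Tfe3 drive many lysosomal genes through a promoter element called CLEAR, and the kinase complex mTORC1 holds them in the cytoplasm. Of 22 genes of this control circuit 20 were tested, 2 rose and 2 fell (20% called, background 38.1%). Tfeb fell from 22.7, 21.5 and 19.7 CPM to 17.3, 18.9 and 15.6 CPM (log2 -0.30 ± 0.0995, adjusted p = 0.00843, edgeR), and Tfe3 was at 129 and 133 CPM (adjusted p = 0.626). Flcn fell (log2 -0.18, adjusted p = 0.0331), and its partner Fnip1 rose (log2 0.33, adjusted p = 0.000534), as did Lamtor2, a scaffold subunit (log2 0.23, adjusted p = 0.0355). The calls of Flcn and Lamtor2 were each lost without at least 3 of the libraries in turn, with adjusted p of up to 0.107 and 0.245.

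The core of the CLEAR element, searched as TCACGTGA, was in the promoter windows of 10 of 86 tested members (11.6%), against 2.3% of tested genes with a window. It was in 3 of the 18 risen members with a window (16.7%), in none of 6 that fell and in 7 of 62 with no call (11.3%). Among all tested genes with a window, it was in 2.37% of the 1811 that rose and 1.71% of the 1641 that fell. Examples from risen genes (Gla and Cd164) and from genes with no call (Ctsa, Ctsd and Igf2r) are printed with the element in capitals, 5′ to 3′ on the gene's strand, from RefSeq on GRCm38.p6.
Gla, chrX:134601215-134601244, minus strand: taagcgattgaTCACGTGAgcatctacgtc
Cd164, chr10:41519401-41519430, plus strand: cgccgggctgcTCACGTGAccggcgcgcgc
Ctsa, chr2:164833757-164833786, plus strand: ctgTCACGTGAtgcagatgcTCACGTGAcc
Ctsd, chr7:142387908-142387937, minus strand: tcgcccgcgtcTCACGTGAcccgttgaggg
Igf2r, chr17:12769737-12769766, minus strand: gaacgaggacgTCACGTGAgcaggaggcgg
The same 8 letters thus stood near the start of genes that rose and of genes that did not pass. In Ctsa the later copy lay after the transcription start. The 250 bases before the start are given for Gla, with both CLEAR copies in capitals, and for Ctss, with its interferon-stimulated element in capitals. They give the wider context of different elements in a risen and an almost unexpressed gene.
Gla, chrX:134601006-134601255, minus strand: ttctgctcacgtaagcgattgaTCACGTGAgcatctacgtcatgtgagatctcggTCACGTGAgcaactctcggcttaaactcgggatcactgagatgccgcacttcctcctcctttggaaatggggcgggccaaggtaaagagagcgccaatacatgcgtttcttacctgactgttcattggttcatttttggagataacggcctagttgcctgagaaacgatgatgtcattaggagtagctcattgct
Ctss, chr3:95526536-95526785, plus strand: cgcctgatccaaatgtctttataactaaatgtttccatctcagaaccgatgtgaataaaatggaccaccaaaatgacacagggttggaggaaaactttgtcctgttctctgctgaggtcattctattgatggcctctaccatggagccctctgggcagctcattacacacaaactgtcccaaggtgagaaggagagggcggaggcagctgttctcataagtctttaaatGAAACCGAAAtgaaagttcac

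Of 15 protease inhibitors looked up, 8 had a row and were tested, and of these 6 rose and 1 fell (87.5% called, background 38.1%). This list, like the others, was chosen with earlier results of these data known. Serpina3g, a serpin that inhibits cathepsins and whose counts were not whole in 3 libraries, rose from 0.23 to 96.7 CPM (log2 8.67, adjusted p = 9.54e-22, edgeR). Its controls held 6, 4 and 3 counts, so few that the size of that fold is uncertain. Serpinb1a rose from 0.904, 1.01 and 1.16 CPM to 14.8, 16.6 and 16.8 CPM (log2 3.96 ± 0.109), and Serpinb9, the granzyme B inhibitor, from 8.13, 8.15 and 6.59 CPM to 34.9, 40.3 and 42.5 CPM (log2 2.36 ± 0.131). Among direct inhibitors of cysteine cathepsins, Cstb (stefin B) rose from 172 to 217 CPM (adjusted p = 0.000146) and Cst3 (cystatin C) from 134 to 149 CPM (adjusted p = 0.0258), while Cst6 fell from 3.5 to 2.64 CPM (adjusted p = 0.0437).

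Of 26 genes for late endosome tethering and fusion, 2 rose and 2 fell (15.4% called, background 38.1%). Plekhm1, an adaptor that links Rab7 to the fusion machinery, rose from 31.1, 29.8 and 32.8 CPM to 84.1, 78 and 76.4 CPM, with all treated libraries more than 2 times above all controls (log2 1.35 ± 0.0581, adjusted p = 1.4e-13, edgeR). Stx7, a late endosome SNARE, rose from 45.2 to 65 CPM (log2 0.52, adjusted p = 2.1e-06). Arl8a, a small GTPase of lysosome transport (log2 -0.19, adjusted p = 0.0163), and Vps18, a core tethering subunit (log2 -0.20, adjusted p = 0.0335), fell. The Arl8a call was lost without control replicate 2 (adjusted p = 0.0562). The Vps18 call was lost without control replicate 2 (0.115) or 3 (0.0514) or treated replicate 2 (0.0913) or 4 (0.114).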

How the data were processed

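Column-purified total RNA of 6 samples was read on a DNBSEQ instrument, per the labels' protocols. The submitters' processing notes list the aligners HISAT and HISAT2 and the builds mm10 and GRCm38.p6 without saying what each was used for. Which program counted the reads is not stated in these sources. Estimated counts per gene, 6.8% to 7.37% of them not whole, were deposited with TPM and FPKM values per the file headers. FPKM values deposited by the authors entered no result. Coordinates of the 122 members are from RefSeq GRCm38.p6, and the start in the tables was the same for 114.

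Counts were rounded and tested with edgeR 4.0.16 (R 4.3.3): filterByExpr with a minimum count of 10, TMM factors (0.9717 to 1.033), glmQLFit with robust=TRUE and glmQLFTest over 11423 genes, adjusted p threshold 0.05. CPM are per effective library size, and standard errors came from log2 CPM with a prior count of 2. TPM, deposited per library, was used for levels between genes and ratios within a library, and some TPM means and sums were also given by group. No test was run on TPM. The test was checked on simulated data. Alternatives were DESeq2 1.42.0, RLE, upper-quartile and total-count scaling, other filters, a threshold of 0.01, a replicate block, and leaving out each library in turn.

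The members and lists were chosen with earlier results of these data known. Named are all tested proteases, members changed at least 1.25-fold, the most abundant member of each list and a fixed set. Other members that passed the test, and Atp6v0a4, Entpd4, Entpd4b, Ncoa7, Smpd1, Mcoln1, Ap3b1, Cd68 and genes given by log2 value alone, were named after their values were seen. Some members that this rule would name are counted but not reported here by name.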

Additional observations from a re-analysis of the deposited data

How the results depend on the processing

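Of the 32 lysosomal genes that passed, 21 did so in all 14 alternatives. Of the rises and falls called over all genes, 52.4% were rises, against 38.6% with upper-quartile scaling and 34.5% on total counts. With those 2 scalings 13 and 16 lysosomal genes fell in place of 7, 1 protease fell (Ctsl, also with RLE scaling and DESeq2), and in the proton pump 1 gene rose and 1 fell. On total counts 3122 of all genes fell, 1 of the other hydrolases rose and 6 sorting genes fell. With DESeq2, and at a threshold of 0.01, 1 glycosidase fell and 1 proton pump gene rose. Leaving out 1 library at a time gave 0 to 1 fallen proteases, 1 to 2 fallen glycosidases, 1 to 3 risen other hydrolases, 0 to 1 fallen membrane proteins, 1 to 2 risen and 0 to 1 fallen pump genes, and 3 to 6 risen sorting genes.

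Replicate numbers 2 and 4 occur in both groups, and deviations from the group means correlated at 0.128 and -0.0899, so the numbers were not taken as pairs. Replicate 3 was only among controls and replicate 1 only among treated libraries, so the block fit compares treatment within replicates 2 and 4 alone. In that fit 22 lysosomal genes rose and 10 fell, among the falls 2 membrane proteins and 1 pump gene. Gusb (adjusted p = 0.0645), Psap (0.125), Atp6v0b (0.0856), M6pr (0.056) and Ap3m2 (0.068) no longer passed. Gaa (0.0311), Atp6v0a4 (0.0451), Gga2, Asah1 and Entpd4 (log2 -7.63, adjusted p = 1.61e-06) passed, and the reads of Entpd4 are shared with Entpd4b.

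Signs turned for values that were near 0 and not called. Tpp1 was at -0.026 with upper-quartile scaling, -0.044 on total counts, -0.004 with the block and -0.008 to 0.062 with 1 library left out. Ctsb was at -0.018 and -0.036 with those 2 scalings, and Atp6v0c at -0.007 on total counts. Npc1 was at 0.000 with the filter of 1 CPM in 3 libraries, 0.003 with the block and -0.015 to 0.004 with 1 library left out. Over those same fits Ctsz ran from -0.069 to 0.016 (above 0 without control replicate 2 or treated replicate 4), Igf2r from -0.113 to 0.057 (above 0 without treated replicate 4) and Cd68 from -0.262 to 0.007 (above 0 without control replicate 2). The cause of these changes was not tested. At 17490689 to 18678543 counts per library, 13 members were too low to be tested.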

Other observations

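The tables' other pathway entries, chosen after the values were seen, divide the lysosomal enzymes by substrate. Of 14 tested members that KEGG also lists for glycosaminoglycan degradation, Idua rose and Hyal2, Gusb, Sgsh and Hgsnat fell (35.7% called, against 38.1% of all genes), with a median log2 fold change of 0.01. Of 9 tested members in sphingolipid metabolism, Gla, Neu1 and Psap rose and none fell in edgeR (33.3% called), with a median of 0.10. Of 13 tested members in the phagosome entry, Lamp2, M6pr, Atp6v1h, Atp6v0b and Tcirg1 rose and none fell (38.5% called). The calls of Gusb, Psap, M6pr, Atp6v1h and Atp6v0b were each lost when single libraries were left out. Whether these entries differ from each other was not tested.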
